A study of Mus musculus with 5 samples.

Results

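The cells described here are alveolar macrophages recovered by sorting lung cells of hyperoxia-exposed newborn mice on C12FDG. They were chosen by a rule on counts of the sorted library. A barcode had to hold more than 700 and fewer than 8000 genes and under 5% of its counts from mt- features. It had to hold at least 3 of the 8 alveolar macrophage genes Chil3, Ear1, Ear2, Plet1, Krt79, Atp6v0d2, Abcg1 and Cidec. The complement genes C1qa, C1qb and C1qc together had to lie under 1000 CPM (counts of a gene scaled to the same total for every cell or class of cells), and fewer than 3 of the 6 cell cycle genes Mki67, Top2a, Birc5, Cenpf, Nusap1 and Ube2c were allowed. Of 493 sorted cells within the limits on genes and mt- counts, 322 met the rule (65.3%, 95% Clopper-Pearson interval 60.9 to 69.5), out of 13200 such cells in all 5 libraries. The other sorted cells were 53 C1q-high cells, 72 cells with cell cycle genes and 46 cells of neither kind.

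The study asked which cells of the newborn lung become senescent after hyperoxia. C57BL/6J pups were kept in 95% O2 or in room air for 3 days and their lungs were dissociated at postnatal day 7 (pnd7) or pnd60 for single-cell RNA sequencing on the 10x Chromium system. Unsorted libraries came from room air and hyperoxia mice at both ages, and the C12FDG sorted library came from the pooled lungs of 3 hyperoxia mice at pnd7. C12FDG is a substrate that becomes fluorescent when β-galactosidase cleaves it, and the labels call this sorted library senescent cells. Each condition had 1 library, and the number of mice in the unsorted libraries is not given in the sources used here. No sorted library from room air mice was used here, and the paper reused the unsorted libraries from the authors' earlier published work. The sort, the staining, the experiment and the making of the sorted library therefore cannot be told apart in any comparison below.

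Alveolar macrophages are the resident phagocytes of the air spaces. They settle in the lung around birth, take their identity from GM-CSF, TGF-β and the nuclear receptor Pparg, and clear surfactant, dead cells and particles. They are rich in lysosomes, where β-galactosidase, ferritin-derived iron and ingested lipid are handled. They also recycle the iron of ingested red blood cells through heme oxygenase, ferritin and ferroportin.

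The same rule found 177 of 2308 cells in the room air library at pnd7 (7.67%), 77 of 1246 in the hyperoxia library at pnd7 (6.18%), 187 of 4397 in room air at pnd60 (4.25%) and 202 of 4756 in hyperoxia at pnd60 (4.25%). The 322 sorted alveolar macrophages held 5119289 counts, from 1230 to 56509 per cell with a median of 15717, and a median of 3627.5 genes. The unsorted cells were shallower, with 766036 counts and a median of 7056 per cell in hyperoxia and 1406379 counts and a median of 4564 in room air at pnd7. At pnd60 the medians were 7484 counts in room air and 7985.5 in hyperoxia. Levels are therefore given as CPM of the summed counts, and per-cell values after each cell was thinned to 2000 counts. No barcode of the sorted library occurred in another library. Since every condition was a single library, mice could not be compared by a test, and all intervals are 95% intervals of counting error only.

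The label was checked on 8 alveolar macrophage genes that the rule did not use, Pparg, Car4, Siglecf, Marco, Fabp1, Itgax, Lpl and Bhlhe41. Their median number detected per cell rose with the number of rule genes, from 3 in the 21 sorted cells at the lowest allowed count of rule genes to 6 in the 118 cells with 6 rule genes, 7 in the 60 cells with 7 and 6 in the 17 cells with 8. Depth rose as well, from a median of 8345 counts in cells with 3 rule genes to 18911 in cells with 8. The rise alone therefore does not show identity. Every member held at least 3 rule genes because the rule demanded it, so those genes do not check the label either. The label was kept as the name of the cells that met the rule. At the limits, 8 cells with 2 rule genes fell outside and had a median of 2 of the unused genes, against 3 just inside. For C1q, 8 members lay between 500 and 1000 CPM, and 6 cells with 3 or more rule genes lay between 1000 and 2000 CPM, with medians of 3 unused genes inside and 3.5 outside. For the cell cycle genes, 30 members held 2 of them, and 13 cells with 3 cell cycle genes and at least 3 rule genes were outside, with medians of 5 and 6 unused genes.

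RNA of other lung cells was scarce in the sorted alveolar macrophages and plentiful in the unsorted ones. Scgb1a1, the club cell secretory protein, stood at 2712 CPM in room air, 2521 in unsorted hyperoxia and 3.13 in the sorted cells at pnd7. The β-globin gene Hbb-bs stood at 15451, 4273 and 5.66 CPM in the same order. Summed over 10 type II cell markers, the levels were 17510 CPM in room air, 15528 in unsorted hyperoxia and 834 in the sorted cells, with the surfactant gene Sftpc the most abundant of them in each. All 10 markers had counts in the sorted cells. Of 12 mesenchymal markers, 6 had counts in the sorted cells, at 5.27 CPM in sum, and the collagen gene Col1a1 had 0 counts. The 9 club and ciliated markers gave 8.79 CPM, most of it Sec14l3, with Scgb3a1, Ccdc153 and Dynlrb2 at 0 counts. The 8 erythroid markers gave 15.04 CPM with Alas2 and Slc4a1 at 0 counts, against 28218 CPM in room air and 7437 in unsorted hyperoxia.

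Markers of other leukocytes were low or belonged to genes that macrophages share. The T and NK cell markers summed to 42.4 CPM in the sorted cells, of which the receptor gene Il7r gave 42.0, and the T cell gene Cd3e had 0 counts. B and plasma cell markers stood at 1.76 CPM, dendritic cell markers at 4.88 and mast cell and basophil markers at 0.391. Neutrophil markers stood at 123 CPM, most of it S100a8 with 94.2, while the neutrophil genes Ngp, Camp and Retnlg had 0 counts. Monocyte markers stood at 643 CPM, led by the fibronectin gene Fn1 with 384, and interstitial macrophage markers at 959 CPM, led by Mrc1 with 604. Type I cell markers stood at 113 CPM, led by Hopx with 68.0, and endothelial markers at 457 CPM, of which Car4, also a gene of alveolar macrophages, gave 408.

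Much of the type II RNA in the unsorted cells sat in cells that only just met the rule. In the room air library 62 of 177 cells held 3 rule genes, their median Sftpc level was 16327 CPM, and 26 of them had at least 3 of 7 type II markers. The 23 room air cells with 6 rule genes had a median Sftpc level of 148 CPM and 0 such cells. In unsorted hyperoxia the medians were 8052 CPM in the 15 cells with 3 rule genes and 236 CPM in the 16 cells with 6. Because of this difference, the calls and the main lists are also given for cells with at least 6 rule genes, which left 195 sorted, 30 unsorted hyperoxia and 62 room air cells. Club and ciliated RNA then fell to 59.0 CPM in unsorted hyperoxia and 166 CPM in room air.

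**Figure D1:**
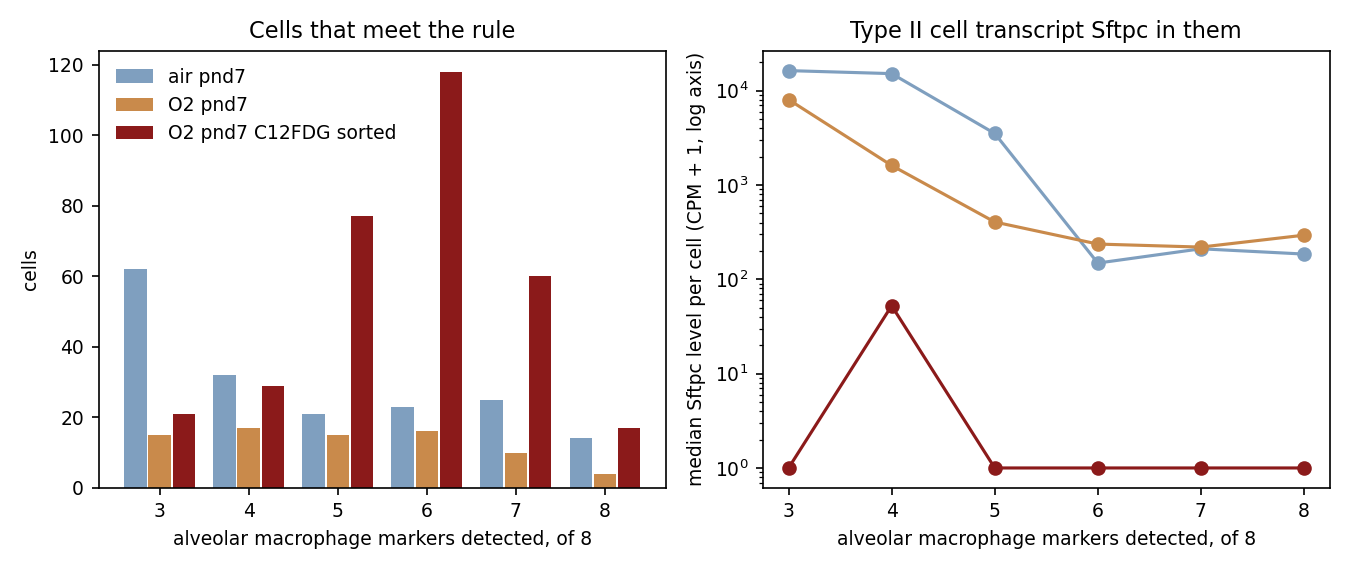
Cells that met the rule at pnd7 by the number of the 8 rule genes detected (left, cells) and their median Sftpc level per cell (right, CPM + 1 on a log axis) in the room air, hyperoxia and C12FDG sorted libraries. Most sorted cells held 5 to 7 rule genes with a median Sftpc level of 0, whereas 62 room air cells held only 3 and had a median of 16327 CPM.

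Sorted alveolar macrophages were compared to unsorted alveolar macrophages of hyperoxia mice of the same age, which differ by the sort and the library. The unsorted data came from the authors' earlier published dataset, so the experiment differed too. A gene was compared when its expected count at equal CPM was at least 20 in the smaller group, and it was called when it passed 2-fold with its interval off 0. Of 4650 genes, 193 (4.15%) were higher and 439 (9.44%) were lower in the sorted cells, and the median log2 ratio of all genes was -0.16. Against room air, 235 of 6463 genes (3.64%) were higher and 899 (13.9%) lower, with a median of -0.25. Both comparisons use the same sorted cells, so they are set side by side and not counted as 2 observations. With at least 6 rule genes, 159 of 3333 genes (4.77%) were higher and 285 (8.55%) lower against hyperoxia, and 191 of 5120 (3.73%) higher and 612 (12%) lower against room air. Scaling by the median of ratios in place of CPM set both medians near 0, at 0.00 for each, and gave 259 higher and 285 lower genes against hyperoxia and 423 higher and 576 lower against room air. With each cell thinned to 2000 counts the balance turned, with 96 of 1005 genes higher and 38 lower against hyperoxia (median 0.17) and 205 of 2252 higher and 144 lower against room air (median 0.10), so no direction over all genes is given. The counts of each gene list are read beside the shares of all genes. Ribosomal protein genes took 14.7% of the counts of the sorted cells, 12.2% in unsorted hyperoxia and 12.5% in room air, and the median share of mt- counts per cell was 0.604%, 0.418% and 0.374%. With hemoglobin, mt- and surfactant genes left out of the totals together, 185 genes were higher and 449 lower against hyperoxia. Against room air the same setting gave 205 higher and 968 lower. The part of the ribosomal genes, or of the mt- genes alone, was not tested.

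Most genes of iron storage, heme breakdown and metal binding were higher in the sorted alveolar macrophages. Of 8 genes of this list that could be compared to unsorted hyperoxia, 6 were higher and 0 lower, with a median log2 ratio of 1.95. Against room air 6 of 9 were higher and 1 lower, with a median of 2.39. With at least 6 rule genes, 6 of 8 were higher in each comparison. The list of 14 genes took 1.51% of the counts of room air cells, 1.77% of unsorted hyperoxia cells and 7.85% of the sorted cells.

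Fth1, the heavy chain of the iron store ferritin, was the most abundant gene of the sorted alveolar macrophages at 4.53% of all counts. Its levels were 12415 CPM in room air and 14240 in unsorted hyperoxia at pnd7, 45287 in the sorted cells, and 9380 in room air and 9310 in hyperoxia at pnd60. The sorted cells stood far above the 4 unsorted groups, whose intervals did not reach theirs. Relative to unsorted hyperoxia the log2 ratio was 1.67, from 1.64 to 1.70. The light chain Ftl1 had 1318, 1533, 6933, 1252 and 3111 CPM in the same order, and its log2 ratio to unsorted hyperoxia was 2.18. Here hyperoxia at pnd60 was the second highest group.

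Metallothioneins are small proteins rich in cysteine that bind zinc and copper. Mt1 stood at 869 CPM in room air and 902 in hyperoxia at pnd7, 15584 in the sorted cells, and 651 and 687 in room air and hyperoxia at pnd60. The sorted level was 17.3 times that of unsorted hyperoxia, a log2 ratio of 4.11, while the 4 unsorted groups were close together. Mt2 stood at 76.8, 96.6, 2487, 109 and 88.8 CPM in the same order, a log2 ratio of 4.69 (4.36 to 5.04), which reached 5.38 as the mean over cells of CPM. The promoters of both genes, taken from RefSeq (GRCm38.p6) from 250 bases before to 50 bases after the start site, are shown because they carry the metal response motif, searched here as TGCACNC or TGCGCNC on both strands. Capitals mark the matches. The Mt1 window (chr8:94178839-94179138, plus strand) held 3 and the Mt2 window (chr8:94172368-94172667, plus strand) held 4, while 25.7% of all 32851 promoter windows and 3 of the 18 windows of the iron and metal list held at least 1.
Mt1: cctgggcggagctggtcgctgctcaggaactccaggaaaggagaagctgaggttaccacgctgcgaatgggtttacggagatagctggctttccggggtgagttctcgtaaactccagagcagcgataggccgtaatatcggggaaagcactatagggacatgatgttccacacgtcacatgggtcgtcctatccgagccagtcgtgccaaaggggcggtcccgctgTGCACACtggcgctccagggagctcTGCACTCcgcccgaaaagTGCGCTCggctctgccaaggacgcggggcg
Mt2: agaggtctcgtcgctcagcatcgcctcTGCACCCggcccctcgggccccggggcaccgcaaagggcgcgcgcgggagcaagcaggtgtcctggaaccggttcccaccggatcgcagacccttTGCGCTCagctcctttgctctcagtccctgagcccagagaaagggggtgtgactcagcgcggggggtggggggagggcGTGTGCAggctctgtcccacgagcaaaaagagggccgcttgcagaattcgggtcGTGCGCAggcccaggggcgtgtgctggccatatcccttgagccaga

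Hmox1, the heme oxygenase that releases iron from heme, stood at 73.9 CPM in room air, 578 in unsorted hyperoxia and 7744 in the sorted cells at pnd7, and at 123 and 198 CPM at pnd60. It had rank 7 among all genes of the sorted alveolar macrophages. The log2 ratio was 3.74 (3.61 to 3.88) to unsorted hyperoxia and 6.71 (6.43 to 7.00) to room air. Over the alternatives these ranged from 3.25 to 4.48 and from 6.57 to 7.33. Its level in the unsorted hyperoxia cells was uneven, since the median thinned count was 0 and the highest cell held 42. Slc40a1, the iron exporter ferroportin, had 9.96, 26.1, 86.1, 6.24 and 19.1 CPM, from room air at pnd7 to hyperoxia at pnd60 in the order used for Fth1. Tfrc, the transferrin receptor that brings iron in, went the other way against room air, with 36.3 CPM there and 16.4 in the sorted cells. It could not be compared to unsorted hyperoxia, where it had 17 counts.

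The shift of these genes was seen in nearly every sorted alveolar macrophage. After thinning to 2000 counts, Fth1 ranged from 12 to 208 per sorted cell with a median of 87, against medians of 19 in room air, 21 in unsorted hyperoxia, 17 in room air at pnd60 and 16 in hyperoxia at pnd60. Mt1 ranged from 1 to 76 with a median of 30, and its median was 1 in each of the other groups. Hmox1 ranged from 0 to 61 with a median of 15, only 1 of 315 sorted cells was at 0, and its median was 0 in each of the other groups. The ranges of the sorted and unsorted cells overlapped for all 3 genes, but their medians lay far apart.

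**Figure D2:**
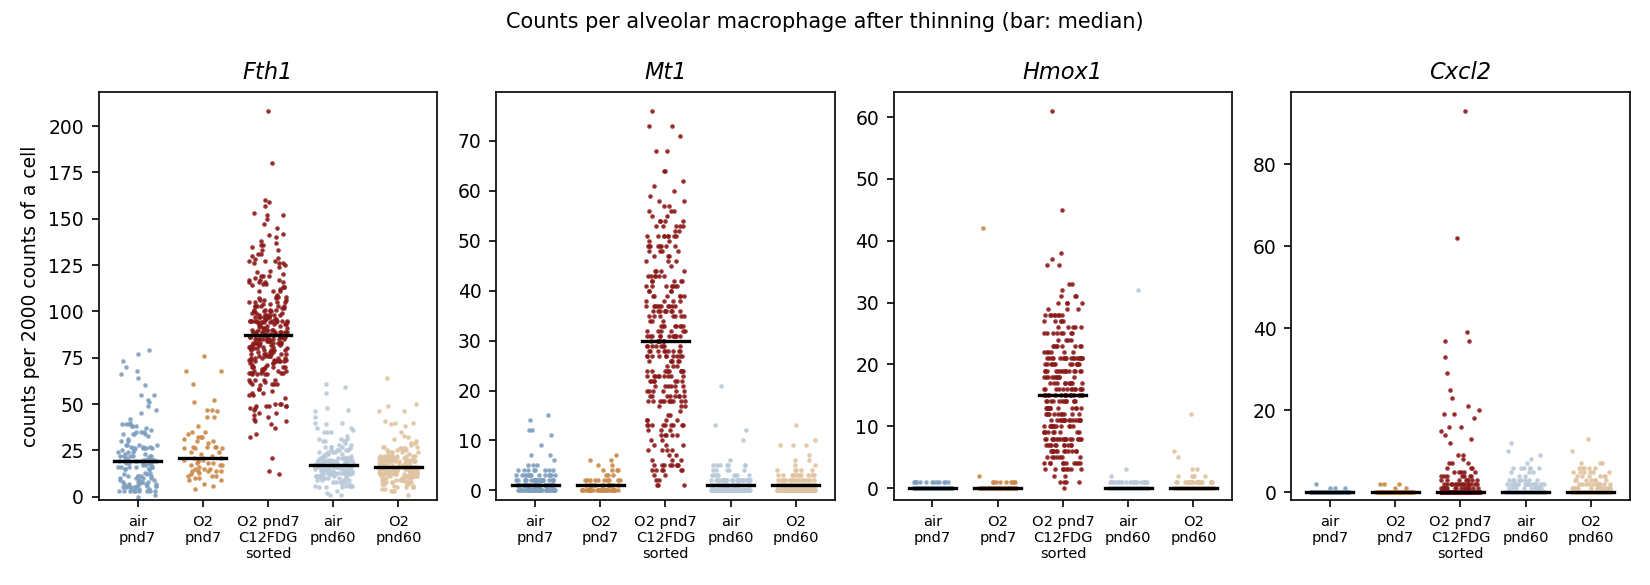
Counts of Fth1, Mt1, Hmox1 and Cxcl2 per alveolar macrophage after thinning to 2000 counts per cell, with 1 point per cell, a bar at the median and 1 column for each of the 5 libraries. For Fth1, Mt1 and Hmox1 the whole sorted population was shifted up (medians 87, 30 and 15), while for Cxcl2 the median was 0 and few cells were high.

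Part of the genes under the transcription factor Nrf2, which answers oxidative stress, were also higher. Of 25 redox genes compared to unsorted hyperoxia 11 were higher and 0 lower, and of 26 compared to room air 10 were higher and 0 lower. The list medians were 0.31 and 0.49, so most members moved little, and Hmox1 is counted in this list as well as in the iron and metal list. In cells with at least 6 rule genes 11 of 24 and 10 of 25 were higher and 0 lower. Slc7a11, the cystine transporter, had 20.6, 62.7, 756, 9.01 and 10.5 CPM in the 5 groups in the order used above, and the sorted level was 12.1 times that of unsorted hyperoxia. Over the alternatives its log2 ratio of 3.59 ranged from 3.08 with at least 6 rule genes to 6.65 in thinned cells, where unsorted hyperoxia held 1 count. Prdx1, a peroxidase of the cytoplasm, had 1288, 1504, 6180, 1237 and 1377 CPM, and had rank 10 among all genes of the sorted cells. Srxn1, which restores oxidized peroxiredoxins, was 7.68-fold higher than in unsorted hyperoxia (160 against 20.9 CPM). The glutathione synthesis genes Gclm and Gclc were 6.68-fold and 5.41-fold higher, and the thioredoxin reductase Txnrd1 5.56-fold. The log2 ratio of Srxn1 (2.94) ranged from 2.51 to 4.45 and that of Gclm (2.74) from 2.51 to 3.77, each highest in thinned cells. The autophagy receptor Sqstm1 was 8.56-fold higher, at 1966 against 230 CPM.

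Several other antioxidant genes were not higher. Gpx1, a glutathione peroxidase, had a log2 ratio of -0.45 to unsorted hyperoxia and -0.20 to room air, catalase (Cat) -0.45 and -0.79, and the cytoplasmic superoxide dismutase Sod1 -0.32 and -0.50. The mitochondrial enzyme Sod2 was an exception, at 1.10 and 1.22. Nqo1, a classic Nrf2 target, had too few counts to be compared, 32 in the sorted cells and 1 in each unsorted pnd7 group. Nfe2l2, the gene of Nrf2, was 2.25-fold higher than in unsorted hyperoxia.

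The promoter of Prdx1 is shown because it carries the antioxidant response motif, searched as TGACNNNGC on both strands and marked in capitals (GRCm38.p6, chr4:116685349-116685648, plus strand). Of 34 windows of the redox list 10 held it (29.4%), against 12.4% of all windows. Srxn1 and Gclm also held 1 match each, and neither window of Fth1 did, which says only that these letters are not in those windows.
Prdx1: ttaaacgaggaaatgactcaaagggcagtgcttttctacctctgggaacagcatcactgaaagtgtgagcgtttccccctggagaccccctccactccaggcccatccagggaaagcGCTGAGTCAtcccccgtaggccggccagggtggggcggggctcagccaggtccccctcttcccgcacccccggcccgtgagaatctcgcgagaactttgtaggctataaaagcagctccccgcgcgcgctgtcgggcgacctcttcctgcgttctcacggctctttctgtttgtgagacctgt

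The integrated stress response raises Atf4 and its targets when amino acids or protein folding are short. In this list 6 of 10 genes compared to unsorted hyperoxia were higher and 0 lower (median 1.34), and 6 of 12 compared to room air (median 0.67). With at least 6 rule genes 6 of 8 and 5 of 12 were higher and 0 lower (medians 1.88 and 0.77). Atf4 was 2.11-fold higher than in unsorted hyperoxia, its partner Ddit3 (CHOP) 7.12-fold and Atf3 5.30-fold. Mthfd2, of mitochondrial folate metabolism, had a log2 ratio of 2.11 and Slc3a2, the partner chain of Slc7a11, of 1.61. Chac1, which breaks down glutathione, had 87 counts in the sorted cells, 1 in unsorted hyperoxia and 0 in the other 3 unsorted groups, so it was not compared at pnd7. Asns, the asparagine synthetase and an Atf4 target as well, stood at 17.1 CPM in room air, 19.6 in unsorted hyperoxia and 20.9 in the sorted cells.

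Promoters of Slc7a11 (chr3:50443564-50443863, minus strand) and Chac1 (chr2:119350992-119351291, plus strand) are shown for the C/EBP-ATF motif to which Atf4 binds, searched as TGATGNAA on both strands and marked in capitals (GRCm38.p6). It occurred in 7 of 20 windows of the list (35%) and in 3.97% of all windows. A match is a description of the sequence and not a measured site.
Slc7a11: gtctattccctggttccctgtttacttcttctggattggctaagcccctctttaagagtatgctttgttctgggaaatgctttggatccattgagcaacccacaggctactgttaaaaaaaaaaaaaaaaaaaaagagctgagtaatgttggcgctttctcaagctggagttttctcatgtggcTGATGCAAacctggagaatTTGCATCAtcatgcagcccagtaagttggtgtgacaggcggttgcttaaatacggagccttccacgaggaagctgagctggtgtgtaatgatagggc
Chac1: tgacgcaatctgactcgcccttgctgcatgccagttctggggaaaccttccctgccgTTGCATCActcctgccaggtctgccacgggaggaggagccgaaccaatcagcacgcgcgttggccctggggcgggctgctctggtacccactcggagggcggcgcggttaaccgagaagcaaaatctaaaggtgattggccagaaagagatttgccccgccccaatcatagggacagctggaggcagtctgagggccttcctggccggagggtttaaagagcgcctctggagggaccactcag

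The same genes were high in the other cells of the sorted library. Hmox1 stood at 7744 CPM in the sorted alveolar macrophages, 7645 in the 53 sorted C1q-high cells, 8273 in the 64 sorted cycling cells with at least 3 rule genes and 3452 in the 46 other sorted cells. In the unsorted hyperoxia library the same classes stood at 578, 132, 63.2 and 52.8 CPM. Fth1 stood at 33890 CPM in sorted C1q-high cells against 4759 in the 16 unsorted ones, and at 14940 CPM in other sorted cells against 1913 in other unsorted cells. For Gclm the level in C1q-high cells was 414 CPM sorted and 62.6 unsorted. Mt1 differed more between classes, with 15584 CPM in alveolar macrophages, 18934 in cycling cells with rule genes, 2623 in C1q-high cells and 1615 in other cells of the sorted library. Fth1, Mt1 and Hmox1 were thus higher in all 4 classes of the sorted library, and the part of the sort, the experiment and library making was not tested. The class of other cells is a remainder that was not alike in the libraries. Its Mmp12 stood at 383 CPM sorted and 0.11 unsorted, and its Hbb-bs at 12.4 and 14067. Its values are therefore not read as a change within a class.

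**Figure D3:**
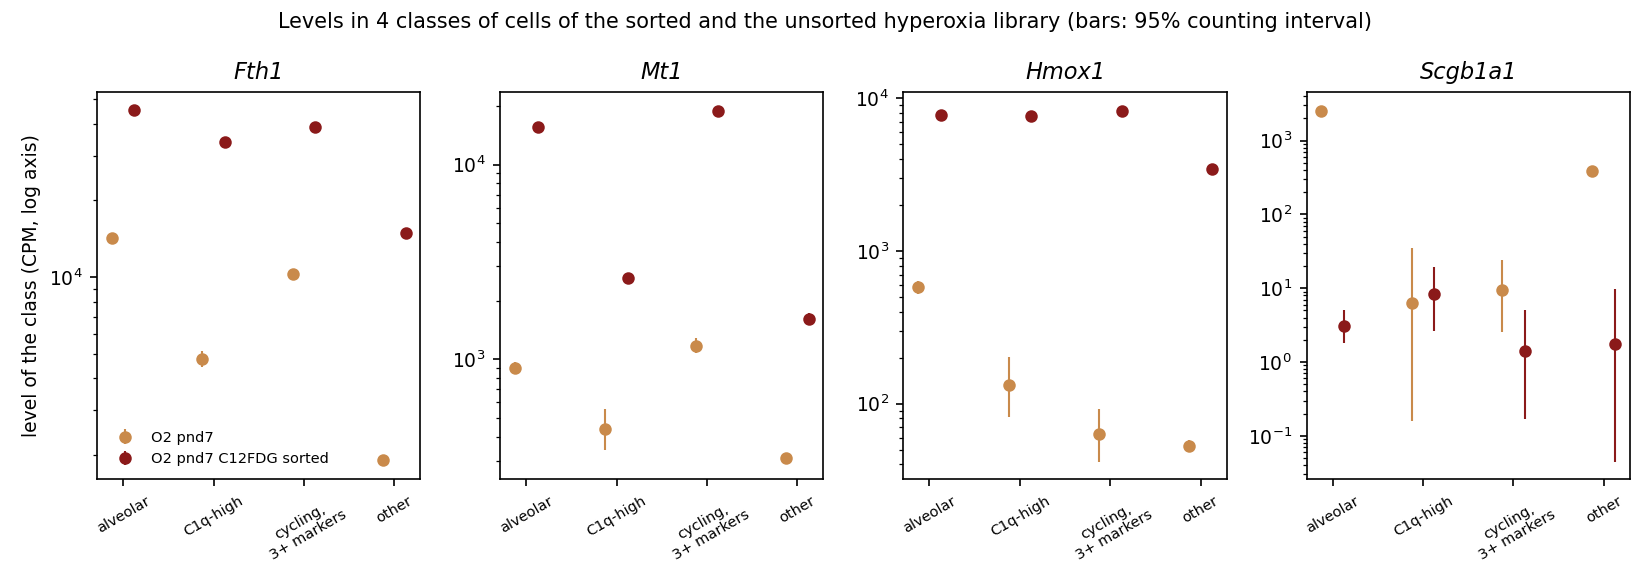
Levels (CPM, log axis, with 95% counting intervals) of Fth1, Mt1, Hmox1 and Scgb1a1 in 4 classes of cells of the unsorted hyperoxia and the C12FDG sorted library at pnd7. Fth1, Mt1 and Hmox1 were higher in all 4 sorted classes, of which the other cells are a remainder not alike in the libraries. Scgb1a1 was at 3.13 CPM in sorted against 2521 in unsorted alveolar macrophages.

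Inflammatory genes that passed 2-fold were mostly higher. Of 25 compared to unsorted hyperoxia 7 (28%) were higher and 1 (4%) lower (median 0.58), and of 29 compared to room air 9 (31%) were higher and 1 (3.45%) lower (median 0.50). Among cells with at least 6 rule genes 5 of 18 were higher and 0 lower than in unsorted hyperoxia (median 0.53), and 6 of 26 were higher and 3 lower than in room air (median 0.17). Cxcl2, a chemokine that draws neutrophils, had 23.5, 69.2, 1150, 494 and 461 CPM in the 5 groups in the order used for Fth1. The sorted level was 16.6 times that of unsorted hyperoxia, and both pnd60 groups also stood above the unsorted pnd7 groups. Sorted C1q-high cells (7520 CPM) and sorted cycling cells with at least 3 rule genes (2647 CPM) stood higher still. After thinning to 2000 counts, 234 of 315 sorted alveolar macrophages held no count of Cxcl2. Its neighbour Cxcl1 had 299 counts (58.4 CPM) in the sorted cells, 1 count in room air and 0 in unsorted hyperoxia, at least 14.9-fold higher than the latter at a floor of 3 counts. Ccl3 stood at 42.7 CPM in room air, 132 in unsorted hyperoxia and 304 in the sorted cells. The lectin receptors Clec4e and Clec4d, which sense dying cells and microbes, were 14.2-fold and 28.1-fold higher than in unsorted hyperoxia, the latter against 3 counts, from a log2 ratio of 3.26 to 7.10. Il1b had a log2 ratio of 0.36 to unsorted hyperoxia (-0.20 to 0.96) and -0.74 to room air, and Tnfaip3 of -0.40 (-0.84 to 0.08) and -0.01 (-0.40 to 0.39). Tnf could not be read, since its counts were divided between copies of the feature.

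Inhba, which encodes a subunit of activin A, had 246 counts in the sorted cells and 1 in unsorted hyperoxia, a log2 ratio of 5.20 with a wide interval (2.71 to 10.51). It had 3 counts in room air, 2 in room air at pnd60, 0 in hyperoxia at pnd60 and 1 in the sorted C1q-high cells. The sorted cycling cells with at least 3 rule genes had 10 counts, or 6.98 CPM, against 48.1 CPM in the sorted alveolar macrophages. The promoter of Cxcl2 (GRCm38.p6, chr5:90903649-90903948, plus strand) is shown for the NF-κB motif, searched as GGG and CC with 5 free bases between them on both strands, with the matches in capitals. It held 3 matches, 2 of which overlap, and so loose a motif was found in 50.8% of all windows and in 29 of 38 windows of the inflammatory list (76.3%).
Cxcl2: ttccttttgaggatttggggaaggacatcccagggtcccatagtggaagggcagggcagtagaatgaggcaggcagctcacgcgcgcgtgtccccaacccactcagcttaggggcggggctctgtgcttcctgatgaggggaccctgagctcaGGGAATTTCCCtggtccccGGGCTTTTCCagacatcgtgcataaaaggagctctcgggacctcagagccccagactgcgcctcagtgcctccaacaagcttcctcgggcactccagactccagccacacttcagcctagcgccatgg

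Genes that the study named as its secretory phenotype were chosen by the study on these same samples, so their direction is not independent evidence. Of 11 compared to unsorted hyperoxia 5 were higher and 0 lower, and of 13 compared to room air 8 were higher and 1 lower. Mmp12, the macrophage elastase, stood at 7.11 CPM in room air, 132 in unsorted hyperoxia and 526 in the sorted cells, and at 1.39 and 16.0 CPM at pnd60. These levels rest on 10 counts in room air and 101 in unsorted hyperoxia at pnd7, and on 2 and 26 at pnd60, each from 1 library. Their spread over the unsorted cells is not given here. Sorted C1q-high cells held 366 CPM of Mmp12 and sorted cycling cells with at least 3 rule genes 440 CPM. On summed counts the hyperoxia group was above room air at each age, and the sorted alveolar macrophages were the highest of the 5 groups. Mmp19 was 6.43-fold higher than in unsorted hyperoxia and 6.53-fold higher than in room air. Spp1, the secreted protein osteopontin, stood at 386 CPM in room air, 377 in unsorted hyperoxia and 970 in the sorted cells.

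Markers by which senescent cells are named passed 2-fold in both directions. Of 15 senescence and p53 genes compared to unsorted hyperoxia, 2 (13.3%) were higher and 1 (6.67%) lower (median 0.15), beside 4.15% and 9.44% of all genes. Of 18 compared to room air 4 (22.2%) were higher and 1 (5.56%) lower (median -0.10), beside 3.64% and 13.9%. In cells with at least 6 rule genes 2 of 12 and 3 of 15 were higher and 1 lower in each. Gdf15, a stress cytokine, stood at 71.8 CPM in room air, 58.7 in unsorted hyperoxia and 807 in the sorted cells, and Mdm2, the p53 inhibitor and target, at 54.8, 75.7 and 291 CPM. Plaur, the urokinase receptor, stood at 248, 290 and 502 CPM, a log2 ratio of 0.79 to unsorted hyperoxia, and the MHC class I light chain B2m at 1052, 1332 and 1033 CPM. Cdkn1a, the gene of p21, stood at 28.4 CPM in room air, 80.9 in unsorted hyperoxia, 54.5 in the sorted alveolar macrophages and 348 in the sorted C1q-high cells, but the annotation divides it between copies, so it was not compared. Cdkn2a, the gene of p16, had 0 counts in the sorted cells, which allows a level of up to 0.586 CPM at 3 counts. The higher Gdf15 level was not limited to the alveolar macrophages. In C1q-high cells it stood at 712 CPM sorted and 18.8 in unsorted hyperoxia. In cycling cells with at least 3 rule genes it stood at 933 CPM sorted and 53.9 in unsorted hyperoxia.

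The enzyme that C12FDG reads is encoded by Glb1. Its level was 23.5 CPM in room air and in unsorted hyperoxia at pnd7, 14.8 in the sorted alveolar macrophages, and 38.1 and 41.3 in room air and hyperoxia at pnd60. The log2 ratio to room air was -0.66 (-1.27 to -0.02) on summed counts, short of 2-fold. With each cell thinned to 2000 counts it was 0.0061, but each group then held fewer than 20 Glb1 counts, too few to set against the summed value. Relative to unsorted hyperoxia it had too few counts to be compared. Of 46 lysosome genes compared to unsorted hyperoxia, 2 (4.35%) were higher, a share near the 4.15% of all genes, and 0 were lower. The median of -0.36 turned to 0.11 when each cell was thinned to 2000 counts. The pair was Ctsk, a cathepsin, with a log2 ratio of 2.39 and Gla, the α-galactosidase, with 1.70. Ctsd, the most abundant of the list in the sorted cells, stood at 3382 CPM in room air, 4450 in unsorted hyperoxia and 4264 in the sorted cells.

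Immediate early genes, which are switched on within minutes of a stimulus or of tissue handling, were mostly lower where they passed 2-fold. Of 18 compared to unsorted hyperoxia 9 (50%) were lower and 1 higher (median -0.96), and of 20 compared to room air 9 (45%) were lower and 1 higher (median -0.90), beside 9.44% and 13.9% of all genes lower. With at least 6 rule genes 6 of 17 and 8 of 19 were lower and 1 higher in each. Fos had 1016, 1144, 109, 1499 and 1449 CPM in the 5 groups in the order used above, so the sorted cells stood far below the other groups. Its log2 ratio to unsorted hyperoxia was -3.39 (-3.54 to -3.23). Klf2 and Klf4, transcription factors that restrain inflammatory genes, had log2 ratios of -2.85 and -2.54, and Ier2 of -1.98. Atf3 was the member that was higher. Fos was also lower in sorted C1q-high cells, at 551 CPM against 2010 in unsorted hyperoxia, so this difference too was not limited to the alveolar macrophages. In other cells it stood at 369 against 960 CPM, but that remainder was not alike in the 2 libraries.

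Alveolar macrophage identity genes passed 2-fold in both directions between sorted and unsorted cells of the same age. Of 27 that the rule did not use, 4 (14.8%) were higher and 1 (3.7%) lower than in unsorted hyperoxia (median -0.12), beside 4.15% and 9.44% of all genes. Against room air 4 of 29 (13.8%) were higher and 3 (10.3%) lower, beside 3.64% and 13.9% of all genes, with a median of -0.17 that turned to 0.08 under median-of-ratios scaling. With at least 6 rule genes, 4 of 27 were higher and 4 lower than in unsorted hyperoxia (14.8% each, median -0.39), beside 4.77% and 8.55% of all genes. In the same cells 2 of 28 were higher and 4 lower than in room air (median -0.44). Bhlhe41, a transcriptional repressor, had 154, 157, 667, 156 and 202 CPM in the 5 groups in the order used for Fth1. Siglecf, their usual surface marker, had 107, 99.2, 44.2, 186 and 197 CPM, so it was lowest in the sorted cells. Pparg stood at 98.1, 123, 69.9, 142 and 153 CPM, and the lipoprotein lipase Lpl at 2486, 3329, 1986, 3943 and 4968 CPM, the lowest in the sorted cells for each. Car4, a carbonic anhydrase on their surface, stood at 382, 334, 408, 439 and 303 CPM, so the sorted cells lay within the range of the others. Over the alternatives the log2 ratio of Lpl ranged from -0.88 to -0.28 against unsorted hyperoxia. Against room air it ranged from -0.54 to 0.05, so its lower level there depended on the setting.

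Lipid and phagocytic genes that passed 2-fold against unsorted hyperoxia were more often lower than higher on summed counts. Of 25 lipid handling genes compared to unsorted hyperoxia 0 were higher and 5 (20%) were lower, beside 9.44% of all genes, among them Abca1, the cholesterol exporter, with a log2 ratio of -1.10. Of 26 phagocytic receptors 3 (11.5%) were higher and 5 (19.2%) lower, beside 4.15% and 9.44% of all genes. Against room air 0 of 26 lipid genes were higher and 3 (11.5%) lower, beside 3.64% and 13.9% of all genes. There 4 of 30 phagocytic receptors (13.3%) were higher and 5 (16.7%) lower. In cells with at least 6 rule genes 0 of 24 lipid genes were higher and 5 lower, and 3 of 23 phagocytic receptors were higher and 7 lower. Lgals3, a galactose-binding lectin, was higher with 2012 CPM in room air, 1898 in unsorted hyperoxia and 5828 in the sorted cells. The formyl peptide receptor Fpr2 (-1.84), the complement receptor C5ar1 (-1.50) and Axl (-1.18), which binds dying cells, had log2 ratios below 0. Mertk, the related receptor, stood at 262, 259 and 220 CPM, and the mannose receptor Mrc1 at 681, 765 and 604. The medians of the lipid and the phagocytic list, -0.41 each, turned to 0.21 and 0.35 when each cell was thinned to 2000 counts, so no direction of these lists is given.

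**Figure D4:**
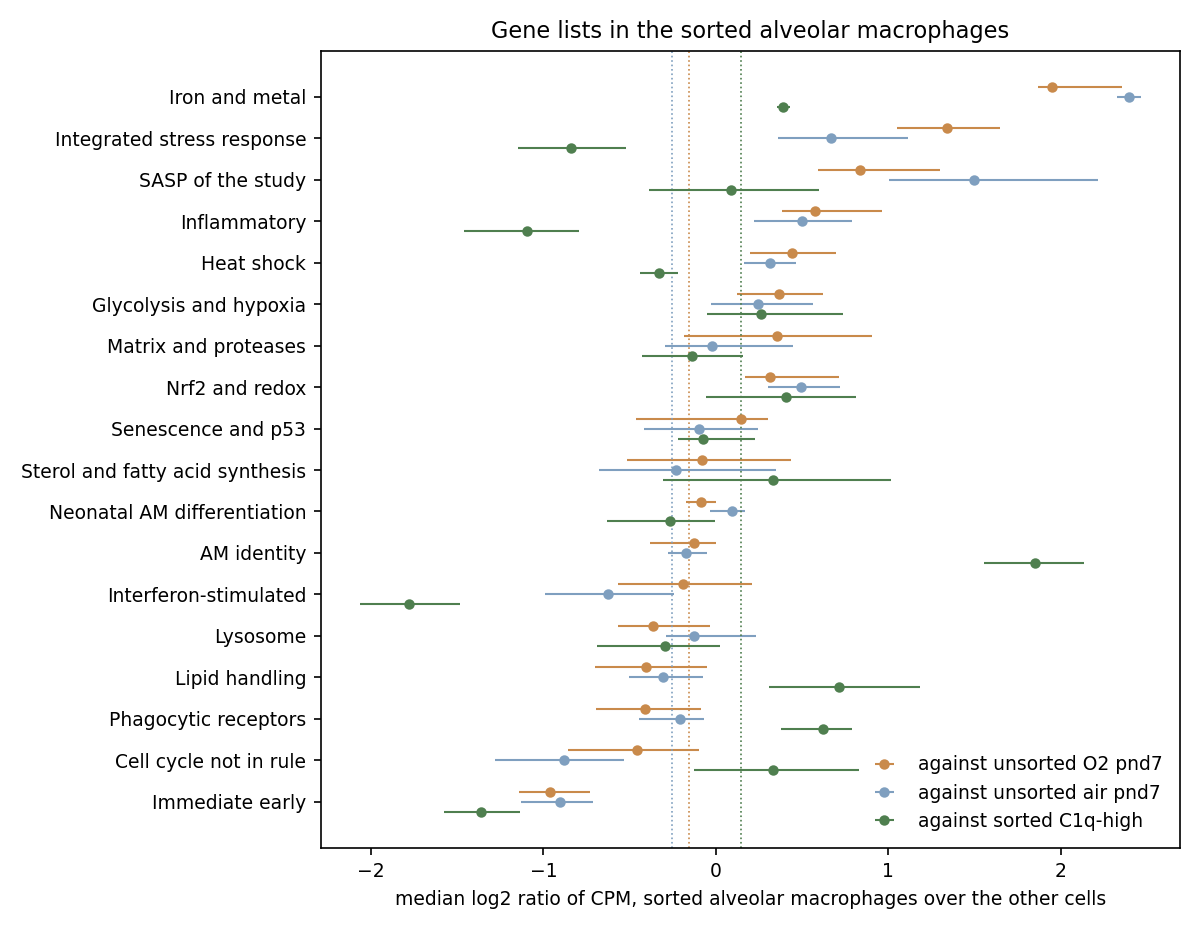
Median log2 ratio of CPM of each gene list in the sorted alveolar macrophages over unsorted hyperoxia, unsorted room air and sorted C1q-high cells, with bars from the median lower to the median upper limit of its genes and dotted lines at the median of all genes. Pathway lists with at least 5 genes in each comparison are drawn, among which the iron and metal list had medians of 1.95 and 2.39 against the unsorted groups, the immediate early list -0.96 and -0.90, and the alveolar macrophage (AM) identity list 1.85 against C1q-high cells.

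Unsorted hyperoxia and room air alveolar macrophages differed less from each other at pnd7 than either did from the sorted cells. Of 5669 genes compared, 27 (0.476%) were higher and 131 (2.31%) lower in hyperoxia. Among the genes described above, Ccl3 was 3.09-fold and Mmp12 18.5-fold higher in hyperoxia than in room air on summed counts. For Mmp12 these were 101 against 10 counts, and the spread of both genes over the unsorted cells is not given here. Hmox1 was 7.82-fold higher, but its thinned median was 0 in both and 1 hyperoxia cell held 42 counts. Slc7a11 was 3.04-fold higher on summed counts, and the thinned cells held fewer than 5 counts of it in each group, so they give no direction. Fth1 (1.15-fold) and Mt1 (1.04-fold) were close to equal.

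Sorted alveolar macrophages were also set beside those of adult lungs. Against hyperoxia at pnd60, 423 of 6867 genes (6.16%) were higher and 1803 (26.3%) lower, and against room air at pnd60 422 of 6587 (6.41%) and 1688 (25.6%). Age, sort, library and experiment all differ here. Of 29 identity genes 2 were higher and 11 lower than in hyperoxia at pnd60, with a median of -0.77 beside -0.45 for all genes. Cd74, the MHC class II chaperone, had 297, 257, 135, 1210 and 1399 CPM in the 5 groups, so both pnd60 groups were above all pnd7 groups. Among the rule genes, given as a description only, Chil3 stood at 222 CPM in room air, 818 in unsorted hyperoxia, 591 in the sorted cells, and 7389 and 10406 at pnd60. Krt79 stood at 81.1, 19.6, 29.5, 739 and 620 CPM in that order. The iron and metal list again stood out, with 7 of 9 genes higher and 0 lower than in hyperoxia at pnd60 and a median of 2.17.

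Within the sorted library the alveolar macrophages were compared to the 53 C1q-high cells, which came from the same mice, sort and library. Of 3896 genes, 538 (13.8%) were higher and 304 (7.8%) lower in the alveolar macrophages, with a median of 0.14, and the genes of the rule were left out. Of 27 identity genes 19 were higher and 1 lower (median 1.85). Of the C1q-high cells, 13 also held at least 3 rule genes. Car4 was 31.0-fold higher (408 against 13.2 CPM), a log2 ratio of 4.95 that ranged from 2.60 to 6.30 over the alternatives, Lpl 14.9-fold and the chemokine Ccl6 13.4-fold. Siglecf, with 2 counts in the C1q-high cells, had a log2 ratio of 3.74 (1.87 to 6.80). The fatty acid binding protein Fabp1 had 645 counts in the alveolar macrophages and 0 in the C1q-high cells, at least 25.5-fold higher at a floor of 3 counts, a log2 bound of 4.67 that fell to 1.81 in thinned cells. These values belong to cells that the rule had already separated by related genes.

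The C1q-high cells were the more inflammatory of the pair. Of 27 inflammatory genes 15 were lower and 3 higher in the alveolar macrophages (median -1.10), and of 18 immediate early genes 11 were lower and 0 higher. Cxcl2 stood at 1150 CPM in alveolar macrophages and 7520 in C1q-high cells, a log2 ratio of -2.71. Ccl4 stood at 40.2 and 1342 CPM, Atf3 at 346 and 2008, and the lipid carrier Apoe at 228 and 20477. The serine protease Plau was at 4.88 and 302 CPM. Metallothioneins went the other way, with log2 ratios of 2.57 for Mt1 and 2.81 for Mt2, and so did Slc7a11 at 1.93. As the mean over cells of CPM the ratios were 1.40 for Mt1 and 1.51 for Mt2, and with C1q under 2000 CPM 2.91 and 3.35. Hmox1 (0.02) and Gclm (-0.14, from -0.33 to 0.05) lay close to equal. Sftpc differed between the classes, at 675 CPM in alveolar macrophages and 10827 in C1q-high cells. With hemoglobin, mt- and surfactant genes left out of the totals, 521 of 3866 genes were higher and 312 lower. Without cells holding 3 or more type II markers, 490 of 3657 genes were higher and 292 lower. Its part in the ratios of single genes was not tested beyond these settings.

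The 64 sorted cycling cells met the same limit of at least 3 rule genes and differed less from the members than the C1q-high cells did. The remaining sorted cells were not compared gene by gene. Of 6210 genes, 73 (1.18%) were higher and 317 (5.1%) lower in the alveolar macrophages, and of 26 cell cycle genes not used by the rule 23 were lower and 0 higher, with a median of -3.26. The rule had already separated these cells by related cell cycle genes, so the direction of that list was set in advance. Fth1 differed by 0.22 and Hmox1 by -0.10 on the log2 scale. Mmp19 was higher in the alveolar macrophages than in the cycling cells, at a log2 ratio of 1.62, and Inhba at 2.78.

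The members were not alike for every gene. Over 315 members thinned to 2000 counts, 50 of 1507 genes had a variance more than 2 times the mean, and the median ratio was 1.07. Cxcl2 had a ratio of 29.4, with 234 of 315 cells at 0, a highest value of 93 and 85.5% of its counts in the 32 cells with most of it. Mmp12 had a ratio of 9.67, with 229 cells at 0 and 76.4% of its counts in such a top group of 32. Spp1 had a ratio of 6.45 and 58.9% in its top 32 cells. Ccl3, Il1a and Ccl4 were at 0 in 213, 277 and 305 of the 315 cells. Fth1 and Mt1 were uneven in another way, for no cell was at 0 and their top 32 cells held 16.1% and 19.7% of the counts.

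Over the 315 thinned cells, which share 1 library, Mt1 and Mt2 varied together (Spearman rho 0.69) and Fth1 and Ftl1 did so less (0.42). Fth1 and Mt1 did not (-0.10), and Cxcl2 and Il1a did weakly (0.29). Actb had a ratio of 14.5, and it varied with the non-coding Gm38733 (rho 0.78), a gene whose annotation overlaps that of Actb by 401 bases, so that their reads may not be told apart.

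**Figure D5:**
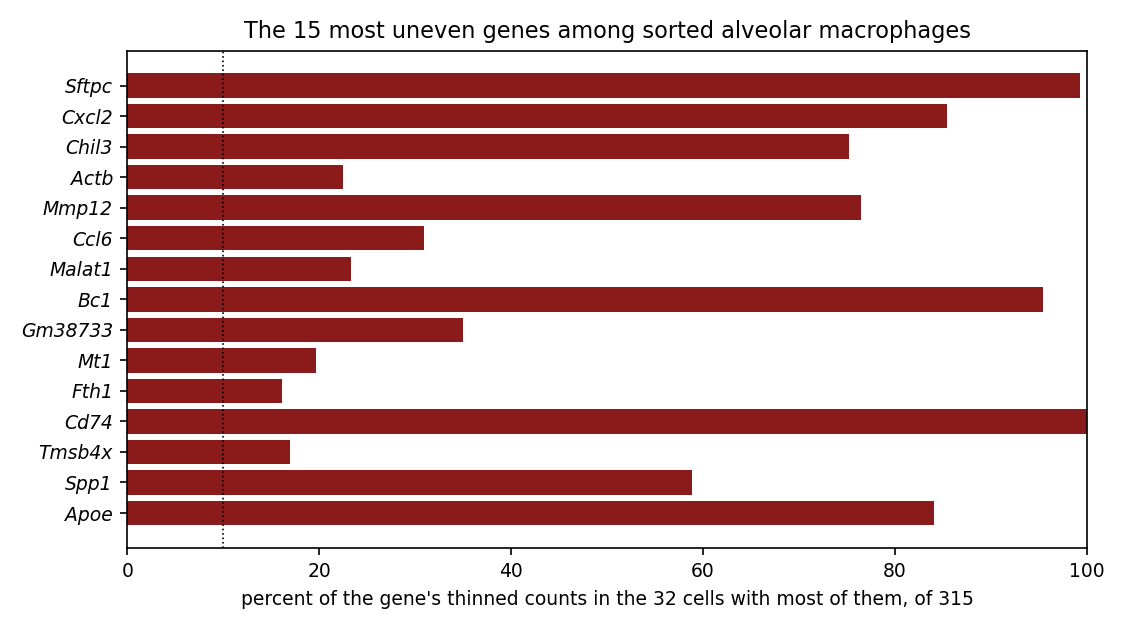
Share of a gene's thinned counts (percent) in the 32 cells with most of it, of 315 sorted alveolar macrophages, for the 15 genes with the highest variance-to-mean ratio, in that order from the top, and a dotted line at 10%. Sftpc (99.3%), Cxcl2 (85.5%) and Mmp12 (76.4%) sat in few cells, whereas Fth1 (16.1%) and Mt1 (19.7%) were spread over all of them.

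Sftpc was the most uneven gene of all, with a ratio of 158. It had 3456 counts in the sorted alveolar macrophages, and 208 of the 322 cells had 0. The 7 cells in which it made up 1% or more of the counts held 91.5% of it, at 11128 to 147813 CPM per cell, and had a median of 4 rule genes. Without them its level fell from 675 to 58.5 CPM. Of the 322 cells, 5 had at least 3 of 7 type II markers. Scrublet, which scores droplets for holding more than 1 cell, called 8 of the members but 0 of these 7 and 0 of these 5. The source of this RNA was not tested.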

How the data were processed

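The series holds 5 droplet single-cell libraries of mouse lung with the 10x Chromium 3′ chemistry, 4 unsorted and 1 sorted. The paper made the sorted library and reused the unsorted ones from the authors' earlier published work as controls. Per the file headers the authors ran Cell Ranger 3.1.0, and the submitters' processing notes name the mm10 build and Seurat 3.2.1. The deposited values are raw UMI counts per gene and cell, not normalized. The authors' cluster labels were not used here. Some genes are divided between features named as further copies (1740 genes, 49 of them in the lists), which were left out of list counts. The mt- features were mt-Rnr1 and mt-Rnr2 only.

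Counts were read with Python 3.11.15, numpy 2.4.6, pandas 2.3.3, scipy 1.17.1 and scanpy 1.11.5. Cells were kept and chosen by the limits given with the results, and the members and gene lists were chosen with earlier results of these data known. Scrublet scores were computed and no cell was removed for them. Levels are CPM of the counts summed over the cells of a class. Intervals at 95% are exact Poisson for levels and Clopper-Pearson for shares and for ratios of 2 groups. Counts of 0 were set to a floor of 3. With 1 library per condition no test across mice was possible, and a call is a description of these libraries. Named genes were the genes of the rule, the most abundant and most uneven genes, those with the highest or lowest ratios, the leading genes of each list, and genes named by the study. Others were named after their values were seen. The procedure was tested on simulated data for the comparison with unsorted hyperoxia, on a set of 4722 genes and not the 4650 compared in the results. In it 95.75% of the intervals of 200 changed genes held the true value. The simulated counts were drawn from the counting model that the intervals assume, without variation between cells, mice or libraries. Coverage near 95% was therefore built in, and it does not show that the intervals cover such variation. Alternatives were other limits on markers and expected counts, thinning, other scalings and leaving out cells with type II markers.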

Additional observations from a re-analysis of the deposited data

Results flagged for a closer look

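Among the 76 barcodes of the sorted library removed by the limits on genes and mt- counts, 14 held at least 3 of the alveolar macrophage rule genes, which is a signal in data that the comparisons did not use. Of these, 9 fell at or under 700 genes and 10 reached 5% in mt- features, with medians of 1161.5 counts and 600.5 genes. Fth1 stood at 16098 CPM, Hmox1 at 4159 and Mt1 at 6266 in them. No cause was tested.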

How the results depend on the processing

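No paired analysis was possible because there was only 1 library of each condition, so no replicate could be left out either. Calls against unsorted hyperoxia were 193 higher and 439 lower, against room air 235 and 899, and against C1q-high cells 538 and 304. At least 2 rule genes gave 707 lower against hyperoxia, 1491 lower against room air and an identity median of 0.11 in place of -0.17 there. At least 6 rule genes, chosen after seeing the data, left 195 of 322 members and 285 lower genes against hyperoxia. Thinned to 2000 counts, 96 were higher and 38 lower against hyperoxia, 144 lower against room air, and 114 higher and 47 lower against C1q-high cells. Thinning turned the lipid (0.21), lysosome (0.11) and phagocytic (0.35) medians against hyperoxia, the identity (0.21), lipid (0.037) and phagocytic (0.29) medians against room air, and the differentiation median against C1q-high cells, from -0.27 to 0.25. An expected count of at least 1 gave 292 higher and 2331 lower, 3752 lower, and 933 higher and 1144 lower in the 3 comparisons in that order, and turned the phagocytic median against C1q-high cells from 0.62 to -0.053. At least 10 gave 863, 1563 and 506 lower. At least 50 gave 127 higher and 128 lower, 289 lower, and 269 higher and 119 lower. The mean over cells of CPM gave 302 higher against hyperoxia with a phagocytic median of 0.16, and 378 higher against room air with an identity median of 0.28 and a phagocytic median of 0.12. Median-of-ratios scaling gave 285 lower against hyperoxia, and 423 higher and 576 lower against room air with an identity median of 0.078 and a phagocytic median of 0.041. The share of calls that were higher moved from 30.5% to 47.6%, from 20.7% to 42.3% and from 63.9% to 54.0%. Thinned to 5000 counts, 143 of 3397 genes in 303 cells had a variance above 2 times the mean. At 2000 counts it was 50 of 1507 genes in 315 cells. The causes were not tested.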

Other observations

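Further gene lists were compared between the sorted and the unsorted alveolar macrophages of hyperoxia mice, where 4.15% of all genes were higher and 9.44% lower. Of 9 heat shock genes 2 were higher and 0 lower, the cochaperones Bag3 and Dnaja1, with log2 ratios of 1.49 and 1.10 and a list median of 0.44. Of 6 interferon-stimulated genes 0 were higher and 2 lower, among them Ifitm2 with a log2 ratio of -2.16, but in cells with at least 6 rule genes 1 of 3 was higher and 0 lower, and Ifitm2 (-0.91) had too few counts to be compared. Within the sorted library 5 of 5 such genes were lower than in the C1q-high cells. Of 14 glycolysis and hypoxia genes 2 (14.3%) were higher and 0 lower, the glucose transporter Slc2a1 (1.31) and Hilpda (1.33), which acts at lipid droplets. With at least 6 rule genes 0 of 11 passed 2-fold, and Slc2a1 and Hilpda had too few counts there to be compared. Of 14 genes of sterol and fatty acid synthesis 2 were higher and 1 lower. Insig1, a brake on sterol synthesis, was higher (1.39) and Scd2, a fatty acid desaturase, was lower (-2.43). Of 12 matrix and protease genes 3 were higher and 0 lower, Mmp12, Mmp19 and Spp1.

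Of 17 genes of fetal monocytes and early alveolar macrophages 4 were higher and 3 lower against unsorted hyperoxia, with a median of -0.09. Zeb2, a transcription factor of macrophage identity, stood at 286 CPM in room air, 350 in unsorted hyperoxia and 828 in the sorted cells. Id1, an inhibitor of transcription factors, stood at 167, 159 and 35.6 CPM in the same order. Of 11 cell cycle genes outside the rule 3 were lower and 0 higher, the cyclins Ccnd2 and Ccnd3 and the replication gene Mcm3. The rule itself left out cells with 3 or more cell cycle genes in every library.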
